A study of Mus musculus with 6 samples.

Results

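Of 13178 autosomal gene promoters measured in cultured mouse spermatogonia, 123 (0.933%) had an intermediate DNA methylation level. A promoter was taken as the CpG sites whose closest transcription start site (TSS) lay no more than 500 bp away, and it was measured if at least 3 such sites had 10 or more reads in all 6 samples. Its level in a sample is the percent of methylated reads over these sites, and the 123 promoters are those in which the mean of the 6 levels was 20% to 70%. They held 672 of the 310995 autosomal sites in this window. Of the other promoters, 12855 were under 20% and 200 were over 70%. Since the levels themselves chose the 123 promoters, the levels are described without a test.

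The sites were measured by reduced representation bisulfite sequencing (RRBS), which reads CpG-rich fragments after a treatment that converts unmethylated cytosines. GS cells are spermatogonia propagated in culture, and these came from mice that carried the Tg14(act-EGFP-OsbY01) transgene of a C57BL6 line, bred into DBA/2. The cells were grown on fibroblast feeders. The 3 replicates of Space GS cells had been frozen for 6 months on the International Space Station and the 3 replicates of Ground GS cells for 6 months on Earth, and DNA was taken 14 days after thawing, with 2 passages. The labels call the samples biological replicates, without stating whether they were thawed or grown separately. Between 28535973 and 33743845 site reads were counted in each sample, a read being counted at every site it covers. At the sites of the 123 promoters the median coverage was 21 to 27 reads. Promoters of 42 listed germline genes, which somatic cells methylate, had a median level of 1.57% to 3.40% in the 6 samples.

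In mammals, methyl groups are added to cytosines of CpG pairs and copied to the new strand when DNA is replicated. Promoters rich in CpGs are generally free of methylation, whereas CpG-poor promoters are often methylated where the gene is silent. A level in between can arise when cells differ, when the parental alleles differ, or when neighboring sites differ, and the mean level of a promoter does not tell these apart.

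Sequence is shown for 4 of the 123 promoters, to let the measured CpGs be seen beside the levels given later. *Fcamr* had the largest difference between groups, *Tjap1* held a step between adjacent pairs of sites, and *Tnfsf13b* and *Cxcl10* were intermediate at every measured site. Each sequence runs 5′ to 3′ on the strand of the gene, from 250 bases before the TSS, and is 280 bases long. The sequences are RefSeq promoters of GRCm38.p6, at chr1:130800652-130800931 (plus strand) for *Fcamr*, chr17:46282997-46283276 (minus strand) for *Tjap1*, chr8:10006217-10006496 (plus strand) for *Tnfsf13b*, and chr5:92348860-92349139 (minus strand) for *Cxcl10*. The table of sites uses mm39, so the sites were placed by their distance from the TSS. Of 29 intermediate promoters with a RefSeq promoter and a site in its 300 bases, 7 had at least 3 sites there that all fell on a CG, and the 4 were chosen from these. *Tnfsf13b* has another RefSeq promoter in which its sites did not fall on CGs, and the one that matched is printed. Capitals mark the CGs that were measured in all 6 samples.
Fcamr: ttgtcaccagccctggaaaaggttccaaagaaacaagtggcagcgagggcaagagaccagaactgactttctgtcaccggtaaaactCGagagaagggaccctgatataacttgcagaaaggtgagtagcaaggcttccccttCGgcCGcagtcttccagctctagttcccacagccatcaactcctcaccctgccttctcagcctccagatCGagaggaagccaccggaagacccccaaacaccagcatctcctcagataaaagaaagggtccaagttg
Tjap1: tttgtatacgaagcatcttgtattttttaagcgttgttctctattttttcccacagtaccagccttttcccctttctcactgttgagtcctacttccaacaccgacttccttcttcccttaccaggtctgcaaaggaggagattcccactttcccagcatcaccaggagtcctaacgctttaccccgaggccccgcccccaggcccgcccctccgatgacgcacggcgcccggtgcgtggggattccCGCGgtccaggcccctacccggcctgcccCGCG
Tnfsf13b: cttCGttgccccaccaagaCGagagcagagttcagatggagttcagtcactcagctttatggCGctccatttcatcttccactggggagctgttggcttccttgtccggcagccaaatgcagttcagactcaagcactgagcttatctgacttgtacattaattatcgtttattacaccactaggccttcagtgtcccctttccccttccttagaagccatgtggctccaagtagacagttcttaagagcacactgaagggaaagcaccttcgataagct
Cxcl10: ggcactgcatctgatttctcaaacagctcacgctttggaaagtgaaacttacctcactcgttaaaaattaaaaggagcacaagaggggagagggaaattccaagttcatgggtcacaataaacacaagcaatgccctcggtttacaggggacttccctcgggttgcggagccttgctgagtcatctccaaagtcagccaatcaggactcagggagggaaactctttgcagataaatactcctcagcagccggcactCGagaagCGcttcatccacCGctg

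The 300 bases around the TSS held 7 CGs in *Fcamr*, 6 in *Tnfsf13b*, 10 in *Cxcl10*, and 18 in *Tjap1*, the most CpG-rich of the 4. Of the 123 promoters, 53 had a single RefSeq promoter of 300 bases under their symbol. Their median was 6 CGs and an observed over expected CpG ratio of 0.352, against 23 CGs and 0.794 in promoters under 20%, 5 CGs and 0.254 in promoters over 70%, and 7 CGs and 0.384 in all RefSeq promoters. These 300 bases often did not hold the measured sites. Of 62 intermediate promoters with a symbol found, 29 had a measured site there. Gm8978 and *Lipo1* had 0 CGs there, and their measured sites lay at +428 to +449 and +348 to +467. The comparison thus describes the RefSeq sequences, not the measured regions. CCGG, the palindrome cut by MspI in RRBS, was present in 77.4% of the 53, 88.7% of those under 20%, 65.3% of those over 70%, and 52.8% of all RefSeq promoters. The number of measured sites also differed: the median was 4 sites per promoter (range, 3 to 25), against 20 under 20% and 4 over 70%. Promoters with few sites thus made up most of the group, and 46 of the 123 had at least 5 sites.

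The intermediate promoters were not spread evenly over 20% to 70%. There were 37 from 20% to 30%, 24 from 30% to 40%, 13 from 40% to 50%, 20 from 50% to 60%, and 29 from 60% to 70%. *Batf* (20.6%) and Gm32357 (20.8%) lay just inside the lower limit and *Osbpl7* (69.3%) and *Il17re* (69.3%) just inside the upper one. The levels of *Batf*, a transcription factor of lymphocytes, were 26.9%, 19.4%, and 17.1% in Space GS cells and 22.0%, 17.3%, and 20.8% in Ground GS cells, so that single samples fell on either side of 20%. Just outside were Gm36546 and *Pcdha8*, and *Taar4* and *Prodh2*. Of the 123 promoters, 16 to 25 were outside 20% to 70% in any single sample.

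Long noncoding genes were frequent among them. Gene types were found by identifier in GENCODE M21 for 116 of the 123, of which 70 (60.3%) were protein coding and 44 (37.9%) long noncoding, with 1 pseudogene and 1 T cell receptor segment (*Trbj2-1*). Long noncoding genes made up 12.3% of promoters under 20% and 48.7% of those over 70%. Predicted genes with a Gm name were 43 (35.0%) of the 123, against 10.9% under 20% and 41% over 70%. In gene type the intermediate promoters thus lay between the others and nearer to the methylated ones.

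Protein-coding genes were grouped by known role after the list had been seen, so the counts are a description, and apart from the keratins no share over all promoters was computed. Of 11 immune genes, which include the chemokines *Cxcl10* and *Pf4*, the cytokines *Il34* and *Tnfsf13b*, the phosphatase *Ptpn22*, and the complement inhibitor *Serping1*, levels ranged from 20.6% to 69.3%. There were 3 keratin genes, *Krt71* (21.3%), *Krt79* (31.3%), and *Krt72* (36.6%), against 9 among the 12855 promoters under 20% and 3 among the 200 over 70%. Muscle genes were *Fgf6*, *Klhl41*, *Cav3*, and *Hhatl* (23.4% to 67.7%), and genes known from the nervous system were *Cplx4*, *Sncg*, *Caln1*, *Calhm1*, and *Omp* (33.8% to 68.4%). Genes known from testis and sperm were *Wfdc15a*, *Tsks*, and *Rnase10* (28.4% to 59.3%), and genes of reproductive hormone signaling were *Lhb*, *Lhcgr*, and *Rxfp2* (25.1% to 61.0%). Genes with roles in most cells included *Tmem223* (21.9%), *Mrpl36* (23.3%), and *Romo1* (23.5%), for mitochondrial proteins.

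Few of the listed genes of germ cells and other cell types were in the group, as were few of all promoters (0.933%). Of 23 spermatogonial genes and 14 pluripotency genes measured, 0 were intermediate, and their highest mean levels were 2.88% and 5.58%. Of 15 fibroblast genes, which mark the feeders, 0 were intermediate, and the share of methylated reads over these promoters was 1.47% to 2.80% in the 6 samples. Of 42 germline genes, *Wfdc15a* was intermediate, and 3 of the 42 had an unadjusted p under 0.05 between groups, with 0 called after adjustment. The same held for 3 of the 23 spermatogonial and 1 of the 14 pluripotency genes, also with 0 called, against 5.78% of all promoters at this p. Of 44 imprinted genes, *Slc22a2*, an organic cation transporter gene of the *Igf2r* cluster, was intermediate, and the highest of the others was 6.34%. Of 7 testis somatic genes, the luteinizing hormone receptor gene *Lhcgr* was intermediate.

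*Lhcgr* was even across samples. Its 10 sites gave 29.4%, 24.7%, and 24.3% in Space GS cells and 27.7%, 28.3%, and 27.4% in Ground GS cells, and the groups overlapped. *Slc22a2* (3 sites) had 43.1%, 42.7%, and 26.6% in Space GS cells and 32.0%, 29.4%, and 37.0% in Ground GS cells. Here Space 3 was the lowest sample and Space 1 the highest. *Wfdc15a* (4 sites), a gene for a WAP domain protein, had 40.3%, 21.9%, and 35.0% in Space GS cells and 25%, 31.7%, and 16.7% in Ground GS cells, with overlap between groups.

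The intermediate promoters had roughly the same center in each sample but varied individually. Their median level was 45.1%, 44.9%, and 42.3% in Space 1 to 3 and 47.3%, 38.8%, and 41.5% in Ground 1 to 3, as the plot of all 123 promoters by sample shows. Ground 1 was the highest sample in 35 promoters and Space 1 in 29, and Ground 2 was the lowest in 41. The SD over the 6 samples had a median of 6.92 percentage points (range, 0.729 to 17.5), against 1.01 in promoters under 20% and 2.58 in those over 70%.

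**Figure D1:**
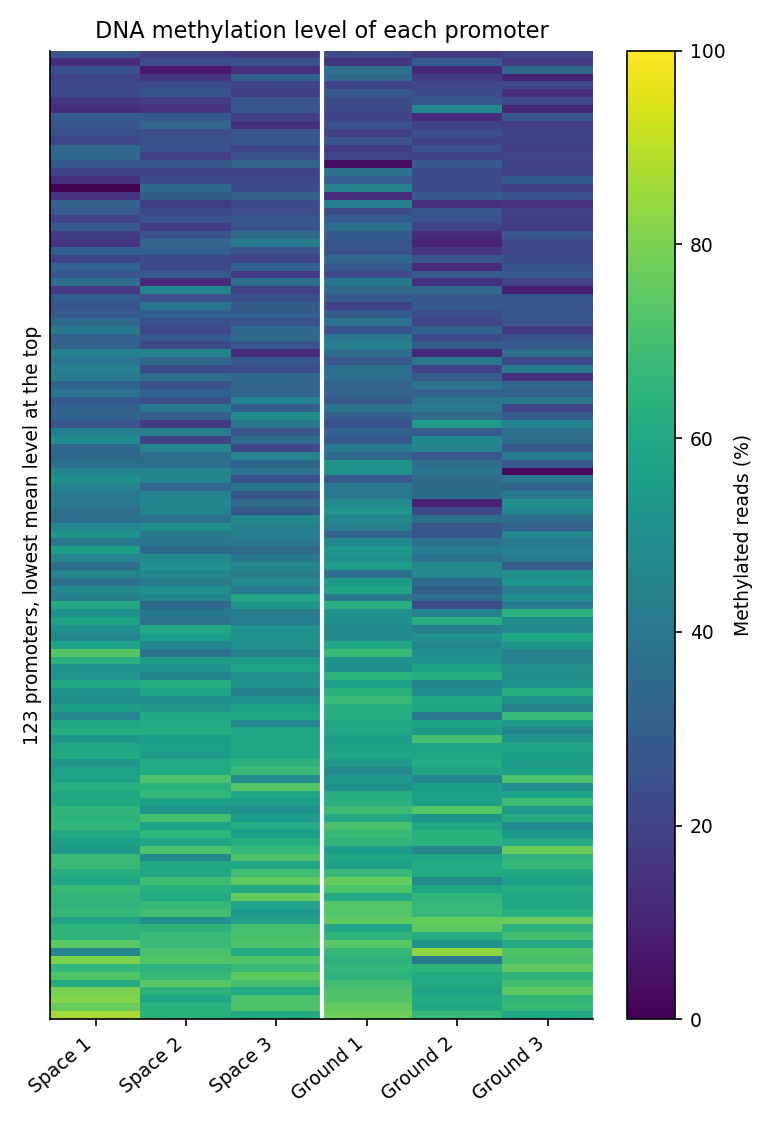
DNA methylation level (percent of methylated reads, color scale 0 to 100) of the 123 promoters (rows, ordered by mean level) in the 3 Space and 3 Ground samples (columns, separated by the white line). The order of levels is similar in all columns, and single dark or bright cells mark promoters in which 1 sample departs from the others.

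The median SD within groups was 6.89 points. Sampling of reads alone was computed with every site at the group mean level of its promoter. It gives a median of 4.62 points if each site had its own reads and 9.48 if each read covered all sites of the promoter. Within-group SDs were above the larger value in 29 promoters and below the smaller value in 23. Where low and high sites are mixed, the computed values can overstate the sampling error. In *Klk9*, for example, the SD within groups was 1.32 points, against computed values of 6.06 and 13.5. In 41 promoters, all sites had the same coverage in every sample. These values cover counting error only, as no molecular identifiers are described and reads may be copies. The median dispersion of summed site reads between replicates was 2.45, against 3.75 in promoters under 20% and 1.23 in those over 70%. A value of 1 is binomial sampling of independent reads. A read is counted at every site it covers, so sampling alone can give more than 1. The median number of sites was 4, against 20 under 20% and 4 over 70%. These values thus do not isolate a spread beyond sampling. Gm15849 had the largest ratio of its SD to the larger sampling SD (2.24), with an SD within groups of 14.1 against 6.30.

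*Ptpn22*, for a tyrosine phosphatase of lymphocytes, had the largest SD over the 6 samples (17.5 points). Its 3 sites gave 45.1%, 45.5%, and 38.1% in Space GS cells and 51.3%, 38.6%, and 2.56% in Ground GS cells. Ground 3 stood apart, with 0 of 13 reads methylated at 2 of the 3 sites, which allows a level of up to 23.1% at such a site. The difference between groups was 12.1 points, and it was -2.06 without Ground 3.

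*Mrap*, which encodes an accessory protein of the melanocortin 2 receptor, varied in both groups. It had 0.526%, 33.3%, and 22.7% in Space GS cells and 44.4%, 23.0%, and 18.6% in Ground GS cells over 10 sites. Space 1 was almost free of methylation, with 0 methylated of up to 19 reads at 9 of the 10 sites (up to 15.8% at such a site). Ground 1 had 36.8% to 57.9% at all sites except the one at +365. The sites had nearly the same coverage in each sample, 10 to 19 reads, so few molecules were read at all of them together. The difference of -9.84 points was -0.683 without Space 1 and -1.96 without Ground 1.

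*Cav3*, *Cirop*, and *Il34* also had SDs over 15 points. *Cav3*, the caveolin of muscle, had 60.7%, 34.1%, and 52.5% in Space GS cells and 62.5%, 22.8%, and 40.7% in Ground GS cells. *Cirop* had 34.7% to 46.3% in Space GS cells, and 46.97% and 50% in Ground 1 and 3 but 8.82% in Ground 2. *Il34*, a ligand of the macrophage receptor Csf1r, had 43.9% and 45.0% in Space 1 and 2 but 12.8% in Space 3, and 35.4%, 11.1%, and 35.9% in Ground GS cells. In *Cirop* and *Il34*, 1 or 2 samples were low, whereas the levels of *Cav3* were spread over their range. The groups overlapped in all of these.

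Among the promoters with 8 or more sites, ENSMUSG00000121470 had the smallest SD. This gene, listed without a symbol, had 25 sites and 943 to 1202 reads per sample. Its levels were 22.4%, 22.0%, and 21.03% in Space GS cells and 20.3%, 21.2%, and 21.1% in Ground GS cells, an SD of 0.729 points over the 6 samples. The next smallest SDs were those of *Lhcgr* (2.04 points), Gm44761 (2.34), Gm45371 (2.61), and *Mrpl36* (3.30). Gm45371 had 23 sites and levels of 30.97% to 37.8%.

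An intermediate promoter was not always made of intermediate sites. In 48 promoters (39.0%), all sites had a mean level of 20% to 70%, with a median range between sites of 9.44 points. In 26 there were also sites over 70%, and in 34 there were sites under 20% beside intermediate ones. In 15 (12.2%) there were both sites under 20% and sites over 70%, with a median range of 91.5 points. Of the 672 sites, 156 (23.2%) were under 20%, 444 (66.1%) intermediate, and 72 (10.7%) over 70%.

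*Tnfsf13b*, for the B cell factor BAFF, had 30.7% at -247, 37.4% at -231, and 46.1% at -188, the 3 capitals near the start of its sequence. *Cxcl10* had 22.5% at +6, 26.8% at +13, 30.96% at +25, and 30.6% at +40, the first 3 of which are printed in capitals. In *Fcamr*, 2 of the 4 sites were over 70%: it had 62.9% at -163, 71.0% at -107, 74.6% at -103, and 53.2% at -38. Gm15407, a long noncoding gene, was the most even with many sites: its 10 sites between -197 and -61 had means of 40.7% to 45.3%. In *Krt72*, a keratin gene of the hair follicle, 17 of 18 sites were intermediate and the other was at 14.8%.

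In other promoters, low and high sites lay apart. *Lhb*, for the beta subunit of luteinizing hormone, had 0.694% to 2.78% at 4 sites from -488 to -407 and 96.1% to 98.6% at 2 sites from +478 to +490. *Cst6*, for a cysteine protease inhibitor, had the opposite order, with 73.4% to 95.6% at 3 sites from -440 to -314 and 0% to 2.30% at 15 sites from +185 to +330. The sites over 20% in *Cst6* were at 86.4%, 92.0%, and 87.8% in Space GS cells and 83.5%, 93.9%, and 88.5% in Ground GS cells. Thus both kinds of site were alike in all samples, and the intermediate level of the gene was a mean over them, weighted by reads. This level was 17.2% to 25.96% in Space GS cells and 12.8% to 28.1% in Ground GS cells. In promoters of mixed sites, the level and its spread between samples also depend on the share of reads at each kind of site. In *Arhgef10l*, for a guanine nucleotide exchange factor, 3 sites from +7 to +30 had 2.96% to 11.05%, and the sites at +420 and +498 had 87.6% and 98.6%.

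**Figure D2:**
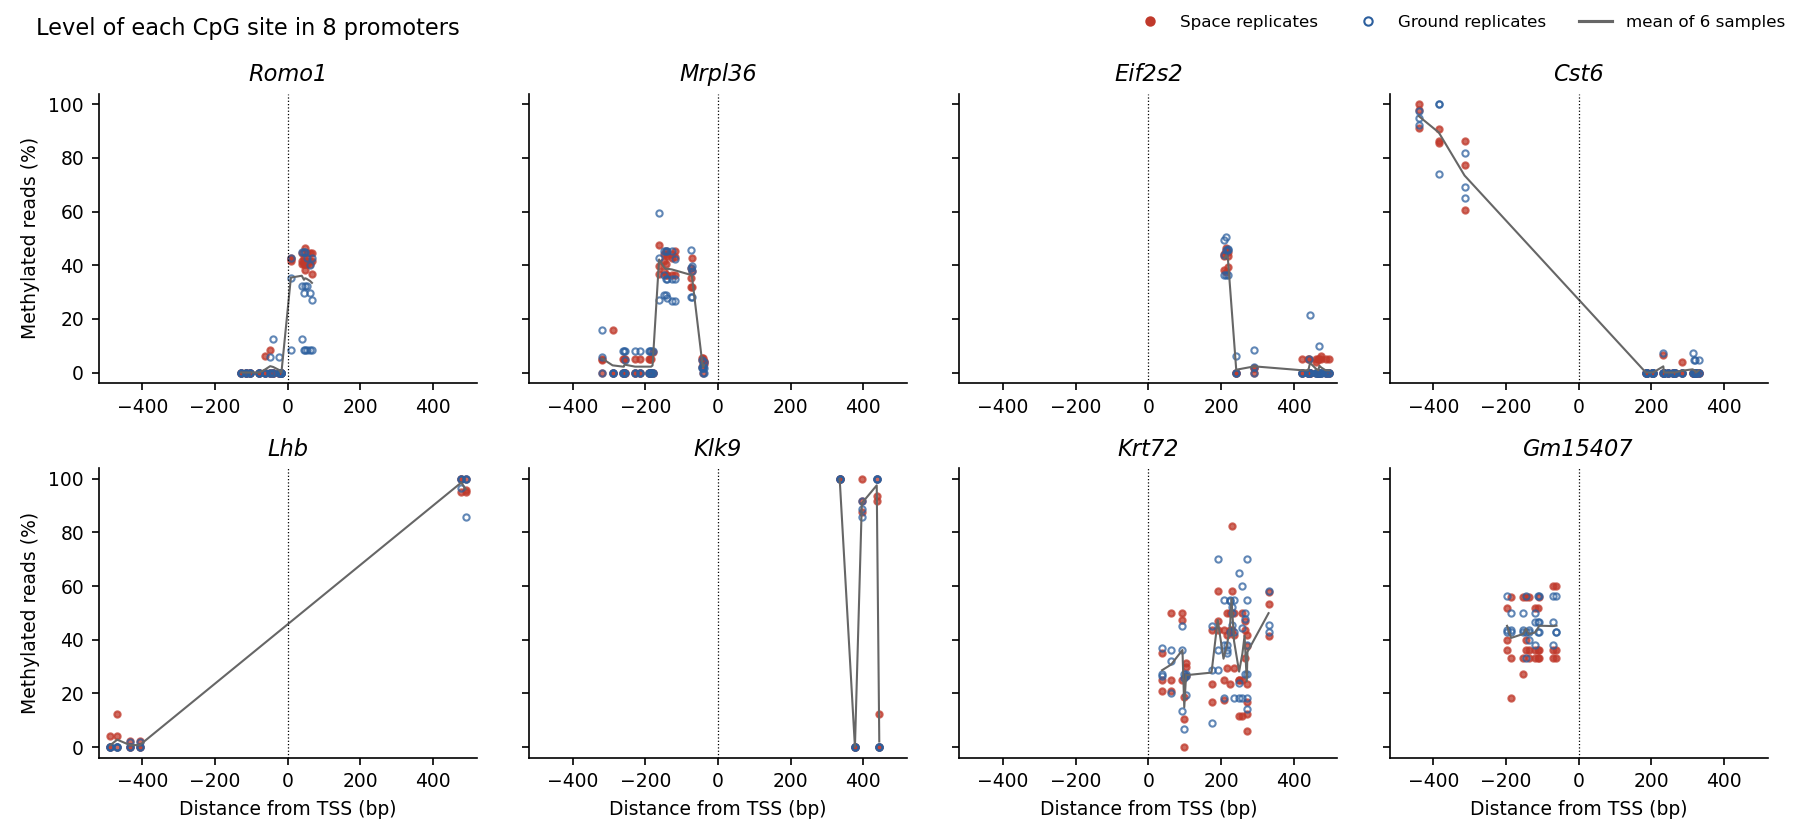
Level of each measured CpG site (percent of methylated reads) by its distance from the TSS (bp, negative upstream) in 8 promoters, with filled points for Space replicates, open points for Ground replicates, and a line through the mean of the 6 samples. *Romo1*, *Mrpl36*, and *Eif2s2* have a block of sites with means of 33% to 44% beside sites with means under 6%, *Cst6* and *Lhb* are methylated on only 1 side of the TSS, *Klk9* alternates, and *Krt72* and Gm15407 are intermediate at nearly all sites.

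Adjacent sites differed by over 50 points in 19 promoters, and in 9 of these the sites were no more than 50 bp apart. In Platr29, the site at +302 had 5.42% and the site at +309, 7 bp away, 96.9%, with 14 to 21 reads at both. In *Klk9*, a kallikrein protease gene, sites at +335, +396, and +437 had 100%, 90.9%, and 97.6%, and the sites at +377 and +444 had 0% and 2.08%. The level of *Klk9*, 56.7% to 60% in the 6 samples, was thus the mean of 3 methylated and 2 unmethylated sites.

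At 8 sites in 7 promoters, 0 reads were methylated in all 6 samples although a site within 50 bp had a mean of 20% or more. They were *Mrap* at +365 (0 of 91 reads, which allows up to 3.30%), *Arhgef10l* at +414 (0 of 100, up to 3%), *Klk9* at +377 (0 of 83, up to 3.61%), Gm56529 at +199 (0 of 83, up to 3.61%), Gm11733 at -39 (0 of 177, up to 1.69%), Gm56579 at -419 (0 of 119, up to 2.52%), and 2 sites of *Romo1*. Outside *Romo1*, a neighboring site had the same coverage in every sample. In Gm56529, the 5 sites around +199 had 52.3% to 62.2%. Whether the genome of these cells has a CG at the 8 sites was not tested.

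In some promoters, the coverage changed together with the level. The sequence of *Tjap1*, for a tight junction protein, shows this best. Its sites at -3 and -1 had 2.03% and 1.88%, with 44 to 76 reads, and its sites at +26 and +28 had 36.1% and 36.6%, with 77 to 98 reads. A CCGG starts at +15, between these pairs, and another at -21. The sites at +26 and +28 together had 39.3%, 34.2%, and 42.7% in Space GS cells and 32.8%, 38.3%, and 30.97% in Ground GS cells.

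*Eif2s2*, for the beta subunit of translation initiation factor 2, and *Mrpl36*, for a protein of the mitochondrial ribosome, had the same arrangement. In *Eif2s2*, 3 sites from +209 to +219 had 42.6% to 43.7% with a mean of 105 reads, and 12 sites from +242 to +498 had 0.833% to 3.57% with 22.2 reads. In *Mrpl36*, 8 sites from -162 to -72 had 36.3% to 42.1% with 76.6 reads, and the 14 other sites had 2.01% to 5.24% with 32.3 reads. Of the 49 promoters with sites both under and over 20%, 19 had more reads per site at the higher sites, 21 had fewer, and 9 had the same, and in 5 the ratio was over 2 (*Eif2s2*, *Serping1*, *Romo1*, *Mrpl36*, and *Wnt8a*). Reads of a similar sequence elsewhere in the genome would raise coverage, and whether such reads were counted here was not tested.

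**Figure D3:**
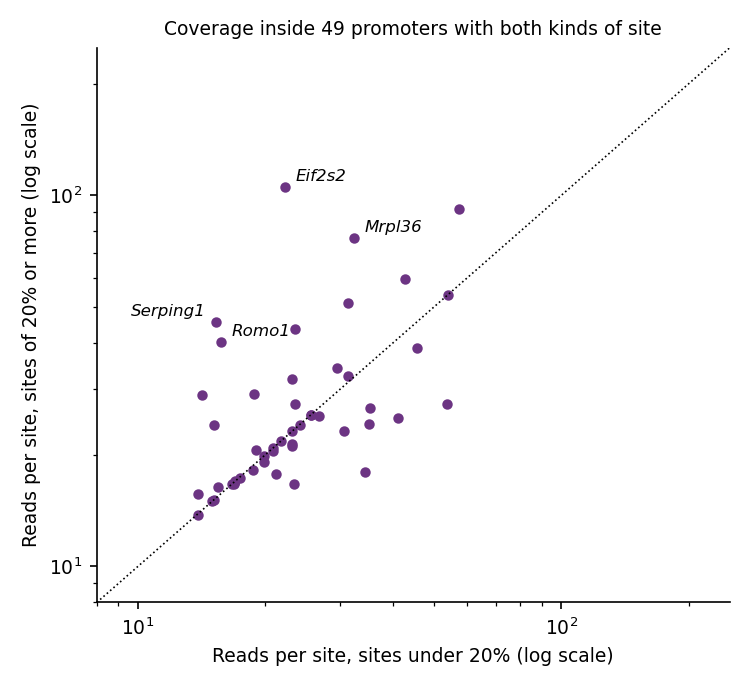
Mean reads per site (log scales) at sites under 20% (horizontal) and at sites of 20% or more (vertical) in the 49 promoters that have both, 1 point per promoter, with a dotted line at equal coverage. *Eif2s2*, *Serping1*, *Romo1*, and *Mrpl36* lie well above the line, and most points lie close to it.

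Position relative to the TSS differed little. Of the 672 sites, 228 (33.9%) were upstream, against 28.9% of sites in promoters under 20% and 38.2% in those over 70%. Mean site levels were 43.4% farther than 250 bp upstream, 34.4% within 250 bp upstream, 39.9% within 250 bp downstream, and 39.7% farther downstream. Beyond the window, 27 promoters had at least 3 sites beyond 500 bp and up to 2000 bp from the TSS. Their flanks were under 20% in 13, between 20% and 70% in 8, and over 70% in 6, with a median of 40.3%, against medians of 1.99% beside promoters under 20% and 72.2% beside those over 70%. For example, *Gsr*, the glutathione reductase gene, had 23.8% at the promoter and 1.002% in the flanks, and *Tjap1* had 23.2% and 81.7%.

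The nearest measured TSS was within 10000 bp for 28 of the 123, and that promoter was under 20% in 25 cases, intermediate in 2, and over 70% in 1. Of the 13178 promoters measured in all 6 samples on the autosomes, 12855 were under 20%. The 2 intermediate ones were the long noncoding genes Gm45680 and B020031H02Rik, whose TSSs were 42 bp apart on opposite strands. The 6 sites of Gm45680 had means of 25.3% to 61.5% and the 4 sites of B020031H02Rik 34.0% to 40.5%.

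The comparison of Space and Ground GS cells did not enter the choice of promoters and was tested. Methylated and total reads were compared across 13414 promoters with a quasi-binomial test whose dispersion was moderated by limma, and p-values were adjusted by the Benjamini-Hochberg method. After adjustment, 0 of the 123 were called, against 0% of all promoters, and the smallest adjusted p of an intermediate promoter was 0.845. Without adjustment, 2 of the 123 (1.63%) had a p under 0.05 by this test, against 5.78% of all promoters, and edgeR's quasi-likelihood test gave 0 of the 123. *Romo1* was higher in Space GS cells, against 3.58% of all promoters, and *Fcamr* was lower, against 2.2%. The share of intermediate promoters with such a p was thus not above the background.

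**Figure D4:**
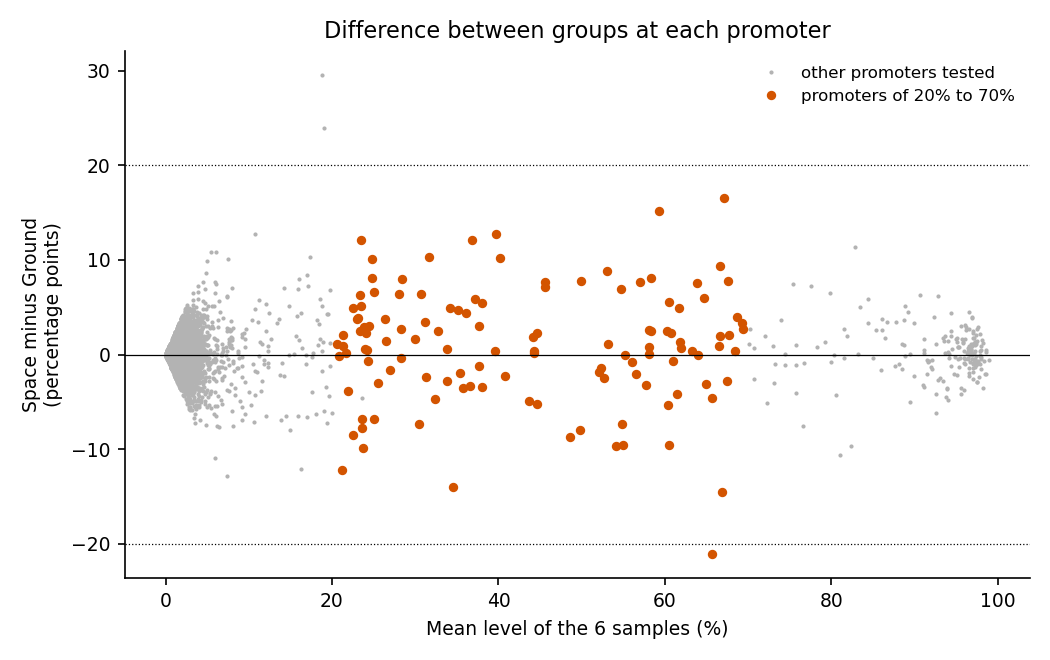
Difference between groups (Space mean minus Ground mean, percentage points) by the mean level of the 6 samples (%), with 1 point per promoter, orange for the 123 promoters and gray for the other promoters tested. The dotted lines mark 20 points in either direction, and *Fcamr*, at -21.04, is the only orange point beyond them.

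The differences were larger in points than elsewhere, as was the spread between replicates. The median absolute difference was 3.51 points (range, -21.04 to 16.5 points, with 95% of absolute differences up to 12.2), against 0.604 in promoters under 20% and 1.37 in those over 70%. The median signed difference was 1.12 points, with 76 promoters higher and 47 lower in Space GS cells, against 0.0741 points over all promoters tested. More were higher than lower in the other classes too. There were 6880 higher and 5957 lower among promoters under 20%, and 107 and 93 among those over 70%. Ground 2 and Ground 3 had the lowest medians of the 6 samples. The signed median of the 123 was 2.87 points without Ground 1 and 0.625 without Ground 2. A difference over 20 points was found in 1 of the 123, *Fcamr*, against 0.0224% of all promoters, which is 3 promoters, and the other 2 had mean levels under 20%. Of 13178 autosomal promoters, 12855 were under 20%, with a median level of 1.75%, where such differences have little room. The 2 shares are thus not a like comparison.

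*Fcamr* encodes an Fc receptor for IgA and IgM. Its levels were 57.7%, 50%, and 57.6% in Space GS cells and 75%, 76.4%, and 77.1% in Ground GS cells, with a mean coverage of 12 to 15.5 reads per site. All 3 Space samples were below all 3 Ground samples. The means were 55.1% ± 4.42 and 76.1% ± 1.06 (SD, n = 3 per group), a difference of -21.04 points, and it was -22.3 to -18.5 when any 1 sample was left out. The exact permutation test (two-sided) gave p = 0.1, the smallest that 3 against 3 samples allow, which follows from the lack of overlap. The limma-moderated quasi-binomial test gave p = 0.0112, and its Benjamini-Hochberg adjusted p was 0.845. Of the 4 sites printed in capitals, the one at -38 had overlapping groups, with 69.2%, 25%, and 46.7% in Space GS cells and 50%, 61.5%, and 66.7% in Ground GS cells. At -103, the values were 61.5%, 62.5%, and 60% against 91.7%, 80%, and 91.7%, without overlap. At mm39 the 4 sites span chr1:130728476-130728602.

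*Romo1* encodes a small mitochondrial membrane protein that modulates reactive oxygen species. Over 17 sites its levels were 28.1%, 28.8%, and 31.8% in Space GS cells and 3.87%, 28.8%, and 19.9% in Ground GS cells. Ground 1 was low, and Ground 2 was as high as Space 2, so the groups overlapped. The difference was 12.1 points, with an unadjusted p of 0.00973 and an adjusted p of 0.845 by the limma-moderated quasi-binomial test, and an exact permutation p of 0.3. Without Ground 1 it was 5.24 points.

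This difference lay in 7 of the 17 *Romo1* sites, from +9 to +67. They had 40.1%, 42.2%, and 43.2% in Space GS cells and 8.93%, 43.2%, and 31.3% in Ground GS cells. The 10 sites from -128 to -17 had 0% to 2.37% in every sample. At the 7 sites, the mean number of unmethylated reads was 31.1, 23.7, and 26.7 in Space GS cells and 21.9, 22.7, and 25.4 in Ground GS cells. The mean number of methylated reads was 20.9, 17.3, and 20.3 in Space GS cells and 2.14, 17.3, and 11.6 in Ground GS cells. Thus the samples differed mainly in methylated reads. Coverage at these sites was 40.2 reads on average, against 15.7 at the 10 upstream sites, and was 24 reads in Ground 1. The TSS of *Nfs1*, the cysteine desulfurase gene, was 147 bp away, and its promoter was at 5.27%.

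The levels of the groups did not overlap in 8 of the 123 promoters (6.50%), 5 of them higher and 3 lower in Space GS cells, against 9.58% of all promoters (5.63% higher and 3.95% lower). *Fcamr*, *Srgn*, and Gm42488 were lower and Gm11733, Gm45144, Gm47157, *Rnase10*, and *Calhm1* higher. Groups of 3 that do not overlap always give an exact permutation p of 0.1 (two-sided), so this p adds nothing to the choice of the 8. *Rnase10*, for a ribonuclease of the epididymis, had 63.0%, 64.4%, and 73.3% in Space GS cells and 50%, 56.1%, and 49.02% in Ground GS cells, with 10 to 19 reads per site. *Calhm1*, a channel gene known from taste cells, had 80.4%, 72.9%, and 72.7% in Space GS cells and 64.4%, 41.03%, and 70.97% in Ground GS cells. The gap between groups was wide in *Fcamr* and *Rnase10* and narrow in *Calhm1*. *Srgn*, for the proteoglycan serglycin, had 20.3%, 20%, and 20.3% in Space GS cells and 37.7%, 22.8%, and 20.4% in Ground GS cells, so that Ground 3 was barely above the Space samples.

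**Figure D5:**
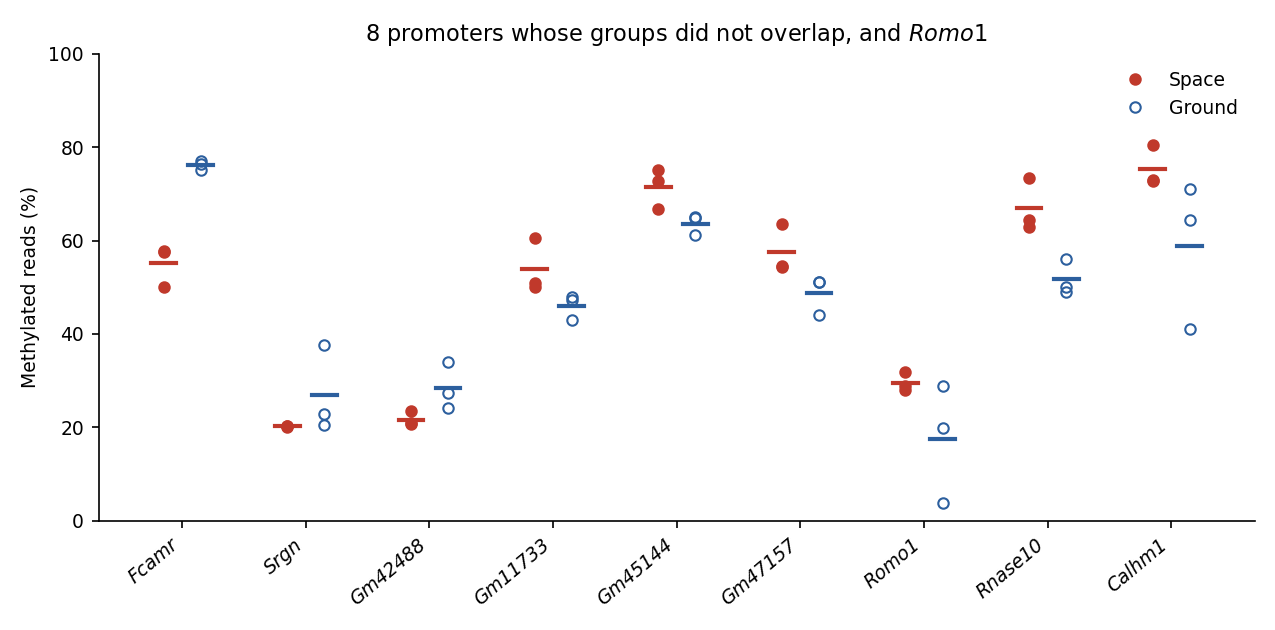
Level (percent of methylated reads) of the 8 promoters whose Space and Ground samples did not overlap, and of *Romo1*, with 1 point per sample (filled, Space; open, Ground) and a bar at each group mean of 3 samples. *Fcamr* has the widest gap, and in *Romo1* the low value of Ground 1 (3.87%) stands apart from overlapping samples.

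The other promoters with the smallest unadjusted p were Gm42488, *Mrap*, Gm8978, and *Dlx1as*. Gm42488 (12 sites) had 20.6%, 23.5%, and 20.9% in Space GS cells and 33.9%, 27.3%, and 24.0% in Ground GS cells. Its difference of -6.75 points was -4.02 without Ground 1 and -2.45 with sites of at least 20 reads. Gm8978 (3 sites) had 46.0%, 71.4%, and 61.5% in Space GS cells and 66.7%, 83.3%, and 72.4% in Ground GS cells, and its difference of -14.5 points was -7.68 without Space 1. *Dlx1as*, the antisense gene of the homeobox gene *Dlx1*, had 30.99%, 29.9%, and 25.6% in Space GS cells and 26.1%, 14.97%, and 21.2% in Ground GS cells. The groups of Gm8978 and *Dlx1as* overlapped, and the adjusted p of all 4 promoters was 0.862 to 0.883 by the limma-moderated quasi-binomial test.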

How the data were processed

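The 123 promoters and the gene lists were chosen with earlier results of these data known. The authors deposited 1 table, in which each CpG site has for every sample a count of covering reads and the percent of them that were methylated, beside the closest TSS. Per the labels, the build was mm39 and the processing notes name Trim Galore, Bismark 0.24.2, and methylKit. Alignment to a reference strain and any filter on mapping can change a level where the cells differ from it, or where sequences are repeated. Duplicate removal is not given in the sources used here.

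The count was multiplied by the percent to obtain methylated reads (within 0.000266 of whole reads). Reads were summed per promoter. The test was a quasi-binomial test with Pearson dispersion moderated toward a trend on the mean level (squeezeVar, limma 3.58.1, R 4.3.3) and an adjusted p threshold of 0.05. Alternatives were other coverage, window, and site filters, equal weight for sites, other moderation, only promoters of 5% to 95%, edgeR 4.0.16, limma on log2 ratios, Fisher's exact test, a replicate block, and leaving out each replicate. Exact permutation tests used scipy 1.17.1. Promoters on the sex chromosomes were tested but not described.

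Named promoters are the 6 with the most sites, the 6 with the smallest p, the 5 with the largest SD, the 5 with the smallest SD among those with at least 8 sites, the 2 inside and 2 outside each limit, and members of the gene lists. The others named were chosen after their values were seen. Sequences came from RefSeq (GRCm38.p6) by symbol. Of the 123, 62 symbols were found. Gene types came from GENCODE M21.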

Additional observations from a re-analysis of the deposited data

How the results depend on the processing

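The 123 promoters became 215 with a minimum of 5 reads, 45 with 20 reads, 201 with a window of 1000 bp, 70 with 250 bp, and 46 with at least 5 sites, and 126 to 129 when a replicate was left out. The counts shared with the 123 were 117, 42, 114, 68, and 46 in the first 5 of these. An unadjusted p under 0.05 was found in 4, 1, 9, and 1 of them with 5 reads, 20 reads, 1000 bp, and 5 sites, in 0 with edgeR, 1 with limma on log2 ratios, and 33 with Fisher's exact test, and in 3 to 6 without a replicate. Fisher's exact test called 12 after adjustment (3125 of all promoters), as it ignores the spread between replicates, and each other alternative in which the test was run on these promoters called 0. Groups did not overlap in 18, 4, 18, 4, and 1 promoters with 5 reads, 20 reads, 1000 bp, 250 bp, and 5 sites, and in 16 to 26 without a replicate, where fewer samples are compared. Over 20 points, there were 4, 0, 2, and 0 with 5 reads, 20 reads, 1000 bp, and 5 sites, and 1 to 3 without a replicate. *Fcamr*, the only one of the 123 over 20 points, had 4 sites and a mean of 12 to 15.5 reads per site. It was therefore not measured with 20 reads or with at least 5 sites. The cause of the other changes was not tested. For unadjusted p, groups not overlapping, and differences over 20 points, the share over all promoters was computed only with the settings that gave the 123. The counts in the other settings thus have no background beside them, and the number of promoters differs between settings. The signed median stayed above 0, from 0.394 with 250 bp to 2.87.

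The replicate numbers were not taken as pairs, although same-numbered samples of the groups carry consecutive sample codes in the labels. What the codes stand for is not stated, so a shared batch is not settled. Same-numbered samples of the groups had correlations of -0.00853 to 0.144 over 454 promoters of 5% to 95%, and others -0.151 to 0.0999. The value of 0.144 was that of Space 1 and Ground 1. These samples had the highest medians over promoters under 20%, 1.82% and 1.84%, against 1.25% to 1.52% in the others. Over promoters above 70%, Ground 1 had the highest median (95.1%) and Space 1 the lowest (94.6%). The reason was not tested. With the replicate block, 2 intermediate promoters had an unadjusted p under 0.05 and 0 were called, and 41 of all promoters were called. With a median of 21 to 27 reads per site and 4 sites, read sampling limits the differences that 3 replicates can show. Its median SD is 4.62 to 9.48 points if every site is taken at the mean level of its promoter.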
